A study of Nicotiana tabacum with 12 samples.

Results

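Root transcriptomes of tobacco (Nicotiana tabacum) coded CR were compared with those coded WTR, with 3 RNA-seq libraries a side, CR replicates 1 to 3 and WTR replicates 1 to 3. These 6 libraries were chosen by their titles from a series of 12, in which the other 6 are coded TCR and TWTR. Of the 25273 gene models in the deposited table, 19858 averaged 1 FPKM or more across these 6 libraries and were tested, and 5415 averaged less. FPKM are fragments scaled to transcript length and to the size of the library. All 12 samples carry one and the same description: tobacco seedlings grown in wells with seedling fertiliser, an NtLHT1 mutant kept for 15 days in a hydroponic solution called LN, and roots as the tissue. The title of the series speaks of low nitrogen. The labels do not spell out C, WT, R or T, and they give no plant line, allele, editing tool, plant age or pooling for any group. No genotype or nitrogen supply was therefore assigned to CR or WTR, and anything that all 12 samples share, the solution included, is shared by both sides of the comparison. The labels do not say whether replicates are separate plants, and p-values therefore reflect only the spread among these libraries, which may be technical.

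LHT1 proteins are plasma membrane carriers of amino acids, first described as lysine and histidine transporters in Arabidopsis. Roots use them to take up amino acids from the medium, and leaf cells use them to import amino acids from the apoplast. Plants short of nitrogen draw on nitrate, ammonium and organic nitrogen through separate families of root transporters, and root gene expression shifts with the nitrogen supply. Of the 25273 identifiers, 0 matched an entry of RefSeq's gene table for assembly ASM71507v2, and the deposited table gives no gene names. NtLHT1, other transporters and root marker genes were therefore not analysed here, so neither the mutation nor the tissue could be checked from the data. The models are described by their levels, their differences and their identifiers.

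The 6 libraries fell into their labelled groups. On log2(FPKM + 1) over the models tested, Pearson correlations were 0.974 to 0.982 within CR, 0.977 to 0.979 within WTR and 0.934 to 0.948 between the groups. The first principal component of the 6 libraries held 60.3% of the variance, with CR at 37.2 to 47.3 and WTR at -44.1 to -40.4. Absolute depth was unknown, because FPKM carries no fragment totals. Relative depth, read from the commonest ratio of low values between libraries, put CR replicate 2 at 1.83 times CR replicate 1, CR replicate 3 at 1.15 times, and the WTR libraries at 0.937 to 1.09 times. Within a group the spread was similar, with a median SD per model of 0.123 in CR and 0.111 in WTR on the log2 scale. Each of the 6 libraries had between 119 and 185 models at least doubled or halved against both of its replicates, and CR replicate 2 had the fewest.

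Between CR and WTR roots, 7322 gene models were called different, 36.9% of all models fitted (limma, Benjamini-Hochberg adjusted p under 0.05). Of these, 4387 (22.1% of models tested) were higher in CR and 2935 (14.8%) lower. In the values as deposited, CR and WTR libraries did not overlap in 10179 models (51.3%), 5808 of them (29.2%) higher and 4371 (22%) lower in CR. Of the models called, 7305 were without overlap and 17 had overlapping libraries. Another 2874 models without overlap missed the threshold. The median difference over all models tested was 0.04 on the log2(FPKM + 1) scale, on which all differences here are given. That scale understates the change of models with low FPKM. The median SE of a difference was 0.11, and the smallest difference called was 0.15. In whole-root RNA, fewer cells of a type and less RNA per cell cannot be told apart.

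**Figure D1:**
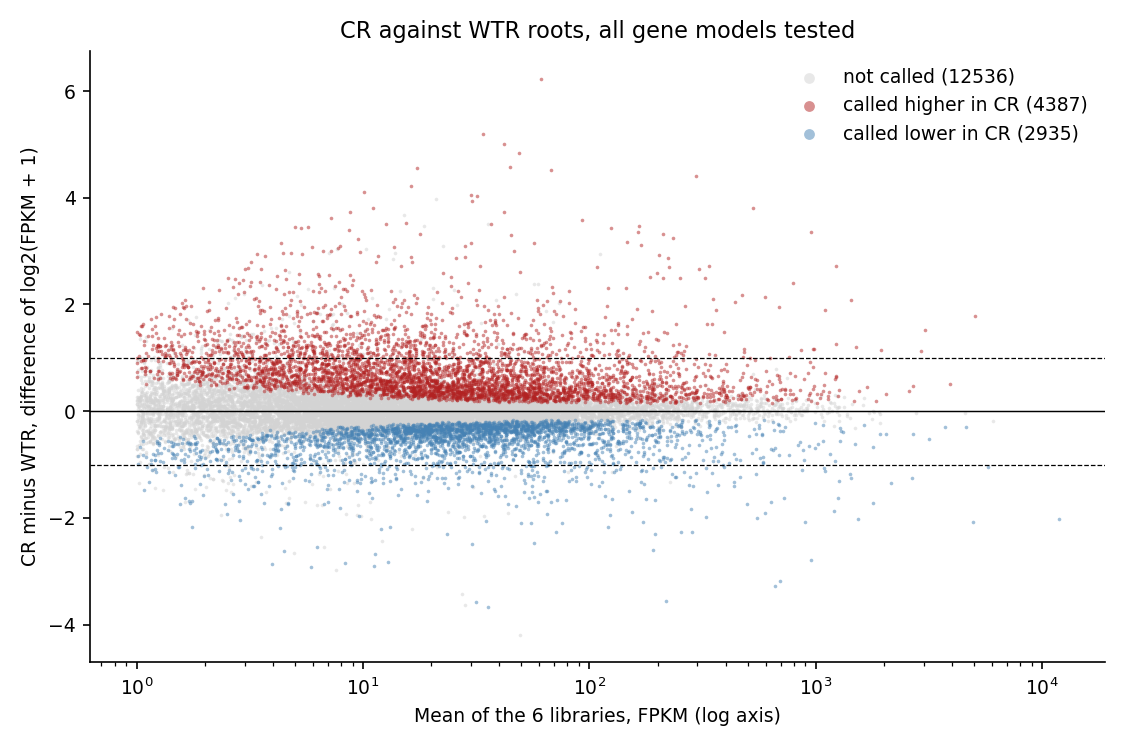
Each point is a gene model tested, placed by its mean FPKM over the 6 libraries (log axis) and by its CR minus WTR difference of log2(FPKM + 1); dashed lines mark a doubling and a halving. The 4387 models called higher in CR reach beyond the upper line more often (1070 models) than the 2935 called lower reach beyond the lower line (324 models).

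In the values as deposited, the differences were asymmetric in size as well as in number. Models higher in CR had a median difference of 0.64 and models lower in CR one of -0.47. A doubling or more was seen in 1070 models (5.39% of models tested) and a halving or more in 324 (1.63%). Differences under 1.5-fold made up 45.0% of the higher models and 64.1% of the lower ones. At the other end, 119 models were 4 to 8 times higher in CR and 33 as much lower, and 47 were at least 8 times higher and 5 at least 8 times lower. The split depended on how libraries were scaled. Rescaling to TPM gave 4008 models higher and 3253 lower, or 55.2% higher. Median-of-ratios scaling gave 3910 higher and 3513 lower, or 52.7% higher. Quantile normalization, which forces all libraries to one distribution, turned the split to 3480 models higher and 4092 lower, or 46.0% higher where the values as deposited gave 59.9%. Among calls of a doubling or more it gave 65.5% higher in place of 76.8%. The split of models without overlap depended on scaling too. They numbered 5808 higher and 4371 lower as deposited, 5330 and 4789 with TPM, and 5197 and 5022 with median-of-ratios scaling. Under quantile normalization 4586 were higher and 5822 lower. With a pseudocount of 5 rather than 1, the called doublings came to 504 and the halvings to 171. With one of 0.1 they came to 1336 and 440.

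Calls were more frequent among abundant models, and the share of calls that were higher in CR was largest in the class with the lowest means. At a mean of 1 to 5 FPKM, 741 of 4203 models were higher in CR and 299 lower, so 71.2% of the calls were higher. At 5 to 20 FPKM the counts were 1435 higher and 842 lower of 6618. At 20 to 100 FPKM they were 1560 and 1363 of 6814, where 53.4% of calls were higher. At 100 FPKM and more they were 651 and 431 of 2223, where 60.2% of calls were higher. The share of models called rose from 24.7% in the lowest class to 48.7% in the highest, while the median SE fell from 0.20 to 0.07. Doublings outnumbered halvings by 308 to 74 in the lowest class, 406 to 75 and 244 to 101 in the next classes, and 112 to 74 in the highest. Without CR replicate 2, the deepest library, 569 models of the lowest class were higher in CR and 211 lower, so 72.9% of its calls were higher; this count was added after the data were seen.

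**Figure D2:**
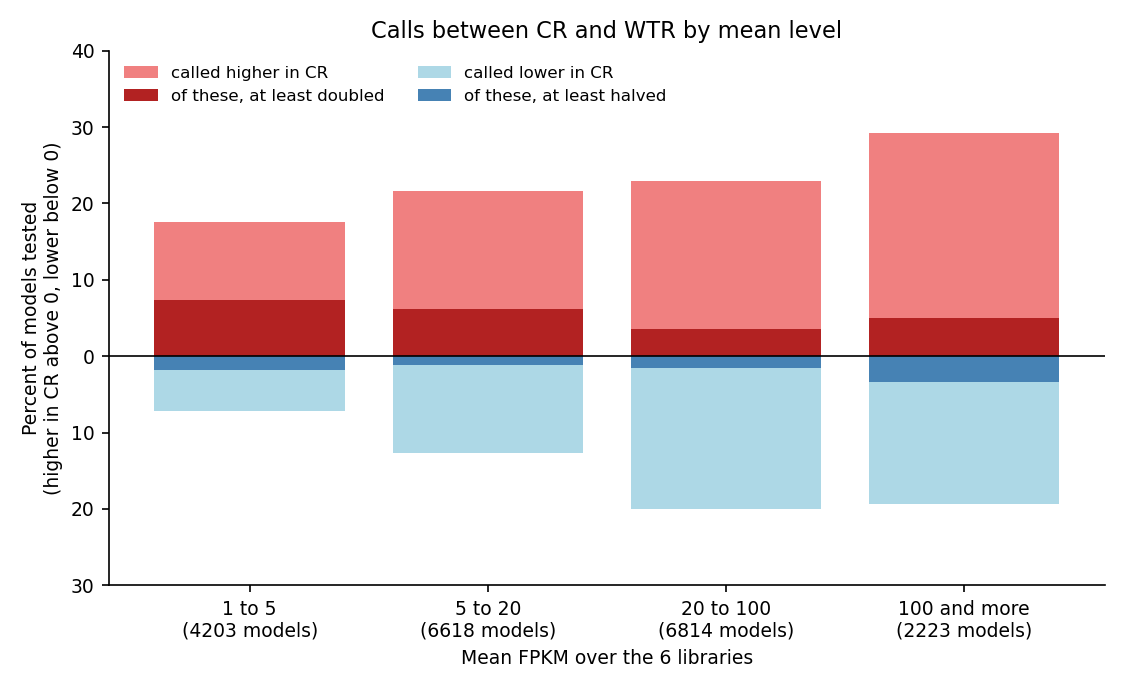
Percent of models tested that were called higher in CR (above 0) or lower (below 0), in 4 classes of mean FPKM over the 6 libraries; the dark part of each bar is the share at least doubled or halved. In the class of 1 to 5 FPKM the higher calls make up 17.6% and the lower calls 7.11% of the models.

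The 4 gene models named here carried the 2 largest rises and the 2 largest falls in CR among the models that qualified. Those models were called and measured at 1 FPKM or more in each of the 6 libraries. They also had at least 5 FPKM on average in the higher group and no overlap between groups. Among models that met these conditions (3795 higher and 2699 lower in CR), Nitab4.5_0000114g0140 had the largest positive difference. Its CR libraries stood at 85.58, 80.55 and 80.15 FPKM, and its WTR libraries at 1.42, 1.37 and 1.98 FPKM. All CR libraries were alike and far above WTR, with means of 82.1 ± 3.03 against 1.59 ± 0.339 FPKM (SD, n = 3 each), which is 51.6-fold. The log2 difference was 5.01 (SE 0.11, limma adjusted p 6.15e-07). With a pseudocount of 5 it was 3.72, just below the 3.75 of the next model, so the order of these rises depends on the pseudocount.

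The other model named for a rise, Nitab4.5_0003436g0020, had 91.27, 84.77 and 109.94 FPKM in the CR libraries and 1.47, 2.22 and 3.65 FPKM in those of WTR. The WTR libraries varied more in proportion than those of CR, but the groups lay far apart. Means were 95.3 ± 13.1 and 2.45 ± 1.11 FPKM (SD, n = 3 each), which is 39.0-fold, with a log2 difference of 4.85 (SE 0.23, limma adjusted p 1.72e-05).

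Among the models lower in CR, Nitab4.5_0001039g0010 had the largest difference, at 4.02, 4.86 and 4.23 FPKM in CR and 65.67, 68.46 and 67.04 FPKM in WTR. Both groups were tight. The means of 4.37 ± 0.437 and 67.1 ± 1.40 FPKM (SD, n = 3 each) differed 15.3-fold, and the log2 difference was -3.67 (SE 0.08, limma adjusted p 6.15e-07). Nitab4.5_0003558g0020 was more variable, at 2.95, 2.81 and 7.06 FPKM in CR and 73.48, 57.84 and 45.31 FPKM in WTR. The highest CR library still stood well below the lowest WTR library. Its means were 4.27 ± 2.41 and 58.9 ± 14.1 FPKM (SD, n = 3 each), with a log2 difference of -3.57 (SE 0.33, limma adjusted p 0.000485). The order of these falls turned without CR replicate 3 (-3.92 for Nitab4.5_0003558g0020 against -3.65 for Nitab4.5_0001039g0010) and without WTR replicate 3 (-3.74 against -3.67).

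**Figure D3:**
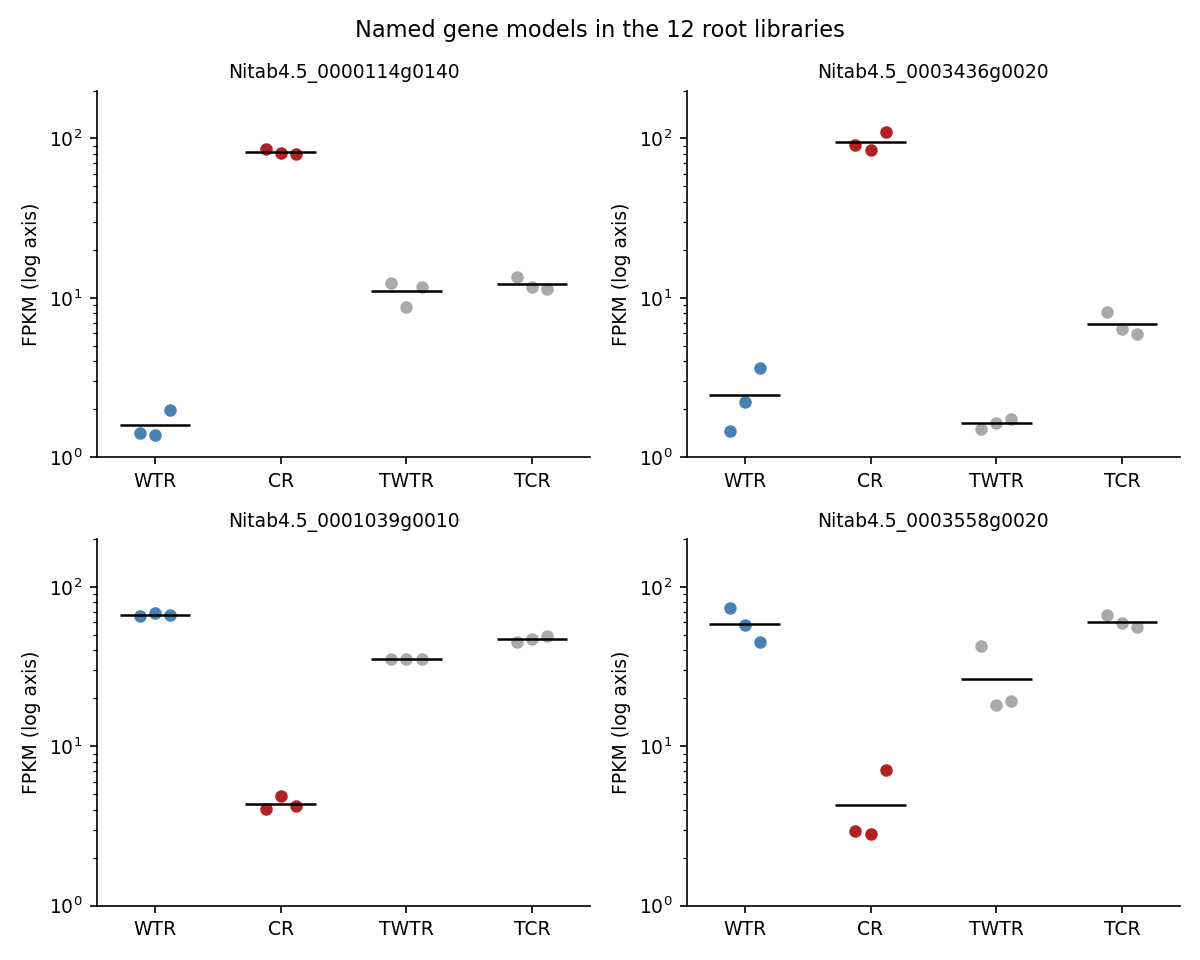
FPKM (log axis) of the 4 named gene models in each of the 12 libraries; points are libraries and horizontal lines are group means of 3. The upper models stand above 80 FPKM in CR and below 4 FPKM in WTR, and the lower models stand below 8 FPKM in CR and above 45 FPKM in WTR.

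In the 6 libraries that played no part in choosing them, the 4 models did not share one pattern. Nitab4.5_0000114g0140 had 12.45, 8.81 and 11.67 FPKM in the TWTR libraries and 13.47, 11.62 and 11.4 FPKM in those of TCR. These groups overlapped, and both lay between WTR and CR (TCR minus TWTR log2 difference 0.15, SE 0.14, limma adjusted p 0.546). Nitab4.5_0003436g0020 was at 1.51 to 1.74 FPKM in TWTR and at 5.90 to 8.16 FPKM in TCR, higher in TCR without overlap (log2 difference 1.56, SE 0.15, limma adjusted p 0.00164). Nitab4.5_0001039g0010 was at 35.11 to 35.5 FPKM in TWTR and at 45.34 to 49.04 FPKM in TCR. It was thus higher in TCR than in TWTR while lower in CR than in WTR (log2 difference 0.41, SE 0.06, limma adjusted p 0.00594). Nitab4.5_0003558g0020 had 42.52, 18.11 and 19.17 FPKM in the TWTR libraries and 66.34, 59.2 and 55.98 FPKM in those of TCR. It missed the threshold (log2 difference 1.26, SE 0.32, limma adjusted p 0.0666). The model passed without TWTR replicate 1 (limma adjusted p 0.000913) and in the fit of all 12 libraries (limma adjusted p 0.0453). Leaving out any other library moved it further from the threshold. The limma adjusted p was 0.184, 0.171 and 0.158 without TCR replicates 1, 2 and 3, and 0.167 and 0.161 without TWTR replicates 2 and 3.

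The largest differences lay mostly on the side of CR. The 47 models at least 8 times higher in CR had a median of 57.7 FPKM in CR (range 8.67 to 1734) and of 2.45 FPKM in WTR. In 14 of them the WTR mean was under 1 FPKM, and 13 had a 0 in at least 1 WTR library, so the ratios of these models rest on values close to 0. In the other groups the same 47 models had medians of 8.34 FPKM (TWTR) and 7.34 FPKM (TCR). In 42 of them every CR library stood above all 9 other libraries, as in 16% of all models tested. The 5 models at least 8 times lower in CR had medians of 33.4 FPKM in CR, 402 FPKM in WTR, 230 FPKM in TWTR and 291 FPKM in TCR, and in all 5 CR stood below all 9 other libraries, as in 11.5% of all models tested. These lists were picked by their CR and WTR values, so the counts describe them and test nothing.

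Of the 20 models with the highest means over the 6 libraries, 10 were lower in CR, 7 were higher and 3 were not called. Over all models tested 14.8% were lower and 22.1% higher, and at 100 FPKM and more 48.7% were called in either direction. These models are given by rank, and were looked at because of their level. The first in rank was at 7026, 3097 and 4364 FPKM in CR, and the WTR libraries stood at 14931, 17968 and 23487 FPKM. Its CR libraries differed among themselves by more than a factor of 1.5, but the groups stood apart (log2 difference -2.02, SE 0.34, limma adjusted p 0.00702). The model of rank 5 carried the same scaffold number in its identifier as the first. Its CR libraries stood at 1894, 1817 and 1976 FPKM and its WTR libraries at 7990, 7666 and 8294 FPKM, lower in CR with little spread in either group (log2 difference -2.07, SE 0.06, limma adjusted p 1.42e-06). In TWTR and TCR its means were 7393 and 8732 FPKM, near the WTR mean of 7983 FPKM. The fourth in rank went the other way, at 8046, 7160 and 8222 FPKM in CR and 2382, 2101 and 2336 FPKM in WTR. It was the most abundant model of all in CR (log2 difference 1.78, SE 0.08, limma adjusted p 5.88e-06), with means of 3442 FPKM in TWTR and 3481 FPKM in TCR. The second in rank was at 5678 ± 447 FPKM in CR and 6423 ± 407 FPKM in WTR (SD, n = 3 each), with overlapping libraries and no call (log2 difference -0.18, SE 0.08, limma adjusted p 0.109). It was called lower in CR after rescaling to TPM, in the fit of all 12 libraries and without CR replicate 1, and higher under quantile normalization.

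The 10 most abundant models of each library held 4.38%, 3.94% and 4.09% of its FPKM sum in CR and 5.50%, 5.72% and 6.39% in WTR, so the signal was less concentrated in each CR library. CR libraries also listed more models at 1 FPKM or more, 19802, 19789 and 19745 against 19399, 19442 and 19490 in WTR. At 5 FPKM or more there were 15751 to 15778 models in CR and 15244 to 15314 in WTR. The groups did not overlap in any of these 3 measures, and each exact two-sided permutation p was 0.1, the smallest that 3 libraries against 3 can give.

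Models called between the groups held about 50% of the measured signal in either group. The 4387 models higher in CR held 32.4 to 33.7% of the FPKM sum in CR libraries and 20.9 to 21.5% in WTR libraries. The 2935 models lower in CR held 15.9 to 16.2% in CR and 26.8 to 27.9% in WTR. Models tested and not called held 50.1 to 51.3% in CR and 50.7 to 51.6% in WTR. The called models were sorted by their CR and WTR values. The direction of their shares between these groups is therefore built in, and the shares only describe its size. FPKM is relative to the library, so a gain in some models can lower the values of others, but its sum is not fixed. The summed change was 139926 FPKM in models called higher in CR and -122510 FPKM in models called lower. The loss was the more concentrated. The 10 models with the largest falls in FPKM made up 29.3% of the summed loss, with 11.4% in the first-ranked model alone, while the 10 with the largest gains made up 15.1% of the summed gain. It took 48 models to hold 50% of the loss and 181 to hold 50% of the gain.

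**Figure D4:**
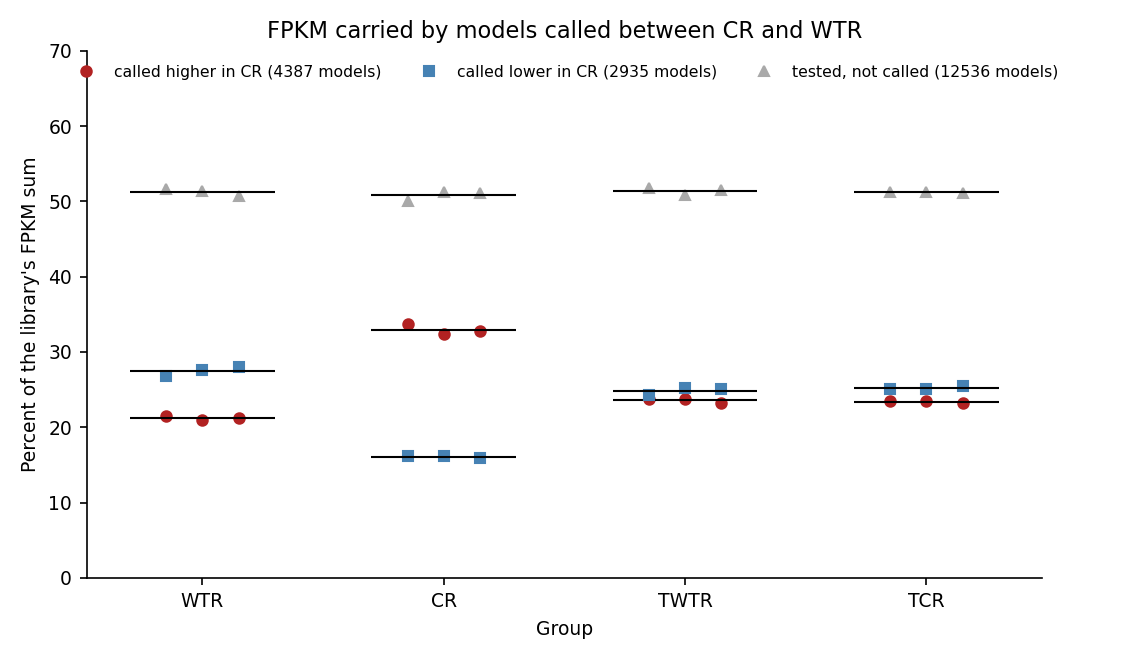
Percent of the FPKM sum of each library held by models called higher in CR, called lower in CR, and tested but not called; points are libraries and horizontal lines are group means of 3. For models higher in CR the CR mean is 33.0%, and the means are 21.2% (WTR), 23.6% (TWTR) and 23.4% (TCR), and for models lower in CR they are 16.1%, 27.4%, 24.9% and 25.2% in the same order. Called models were sorted by their CR and WTR values, so the direction between CR and WTR is built in.

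In the TWTR and TCR libraries the models called between CR and WTR stood, for the most part, nearer their WTR level. Among the 4387 models higher in CR, the TWTR mean was nearer to WTR than to CR on the log2 scale in 65.9% and the TCR mean in 66.9%. Among the 2935 lower in CR the shares were 68.8% for TWTR and 68.0% for TCR. Of the 1070 models at least doubled, TWTR lay between the WTR and CR means in 687, below both in 299 and above both in 84, and TCR in 801, 198 and 71. Every CR library lay above all 9 other libraries in 810 (75.7%) of the 1070, against 16% of all models tested. Every WTR library lay below all 9 others in 378 (35.3%), against 8.44% of all models. Among the 324 models at least halved, CR lay below all others in 232 (71.6%, against 11.5% of all models) and WTR above all others in 113 (34.9%, against 5.45%). The models were chosen by their CR and WTR values, which favours extreme values in both of these groups, so these counts are a description. The shares nearer to WTR and the positions between, below and above were not counted over all models tested. They are therefore not shown to be particular to the called models.

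TCR and TWTR form a comparison that shares no library with CR and WTR, and it was fitted on its own 6 libraries. It gave 1986 calls among 19797 models tested (10%), 995 higher (5.03%) and 991 lower (5.01%) in TCR. The count fell to 827 without TCR replicate 1, 793 without TCR replicate 2, 925 without TCR replicate 3 and 958 without TWTR replicate 3. Over the 19414 models tested in both fits, 5.07% were called higher in TCR and 5% lower.

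Models higher in CR were found higher in TCR in 369 cases and lower in TCR in 341, or 8.70% and 8.04% of 4241. Models lower in CR were lower in TCR in 179 cases and higher in TCR in 260, or 6.14% and 8.92% of 2916. All 4 shares were above those over all models tested in both fits. Read from the other list, 37.5% of the models higher in TCR were higher in CR and 26.4% lower in CR, where 21.8% and 15% of all models were. Of those lower in TCR, 35.1% were higher in CR and 18.4% lower. Abundant models were called more often in both comparisons. At 100 FPKM and more, 30.3% of the models called between CR and WTR were called between TCR and TWTR, against 14.3% of those not called, and at 1 to 5 FPKM the shares were 6.36% and 3.46%.

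The same counts were made for the models with the larger differences. Of 318 models at least halved in CR, 75 (23.6%) were higher in TCR than in TWTR and 25 (7.86%) were lower. Their median TCR minus TWTR difference was 0.16, against -0.02 over all models tested in both fits. Of 969 models at least doubled in CR, 122 (12.6%) were higher in TCR and 95 (9.80%) lower, with a median of 0.04. Without TCR replicate 1 these counts came to 49 and 12 for the halved models and to 51 and 57 for the doubled ones, and without TCR replicate 2 to 49 and 10, and 52 and 56. Without TCR replicate 3 they were 46 and 12, and 68 and 55, and without TWTR replicate 3 they were 58 and 12, and 70 and 60. The lists also differed in level. Of all 324 halved models, 74 averaged 100 FPKM or more over the CR and WTR libraries, and of all 1070 doubled models 112 did. Of the called models in that class, 30.3% were called between TCR and TWTR. The counts in these lists were not split by level. The lists were chosen after the values were seen, and the difference between them was not tested.

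**Figure D5:**
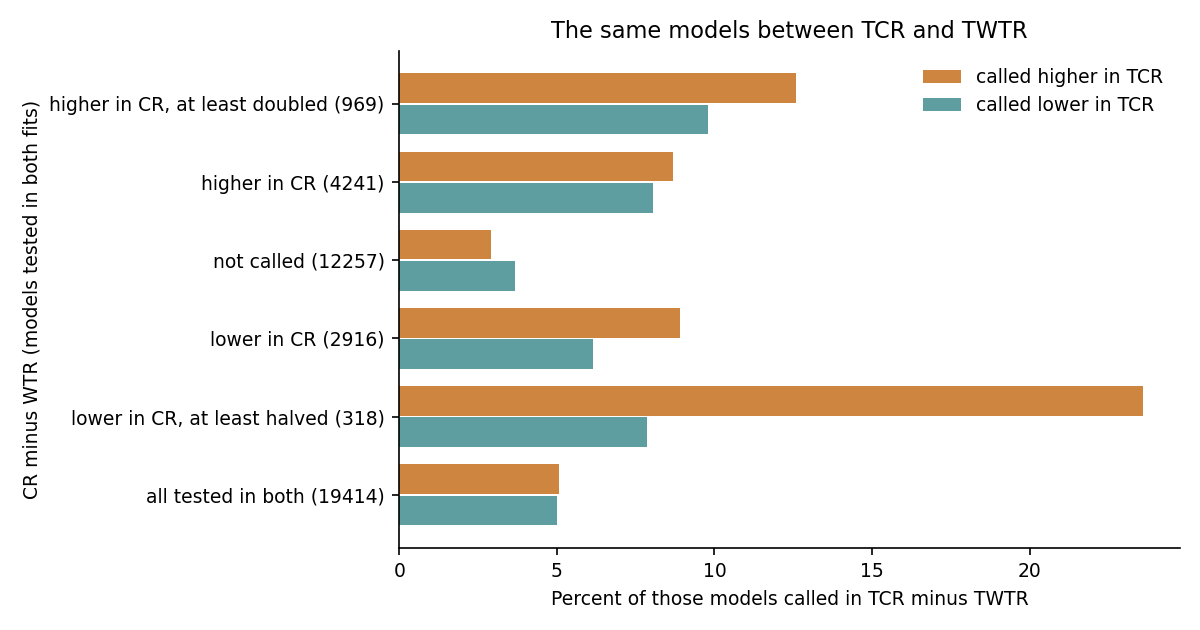
Percent of models called higher or lower in TCR against TWTR, for models grouped by their result in CR minus WTR; the number of models in each group is in brackets and only models tested in both fits are counted. Models at least halved in CR reach 23.6% higher in TCR, against 5.07% over all models tested in both fits. The groups of models were not matched for level.

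Some models were listed at 0 throughout one group. With at least 1 FPKM in every CR library, 30 models were at 0 in all WTR libraries. With at least 1 FPKM in every WTR library, 2 models were at 0 in all CR libraries. These counts were made over all 25273 gene models. Of the 30 models, 20 averaged 1 FPKM or more over the 6 libraries and were tested, as were 2 of the 2. Without overlap, 29.2% of all models tested were higher in CR and 22% lower. The most abundant of the 30 was at 16.32, 10.46 and 5.30 FPKM in CR. The next had 9.42, 10.2 and 10.3 FPKM in the CR libraries and was listed at 0 in all 9 others. Of the 30 models, 6 were at 0 in all TWTR libraries, 11 in all TCR libraries and 4 in both groups. The ratio of these counts moved most with 1 library. Without CR replicate 2, the deepest, 17 models were at 0 in CR against 38 at 0 in WTR. The counts at 0 in CR and in WTR were 4 and 44 without CR replicate 1, and 6 and 50 without CR replicate 3. They were 10 and 45 without WTR replicate 1, 8 and 46 without WTR replicate 2, and 6 and 58 without WTR replicate 3. A 0 need not mean absence. In CR replicates 1, 2 and 3, 18, 10 and 15 models were at 0 while both other libraries of the group were at 5 FPKM or more, and in WTR replicates 1, 2 and 3 it was 26, 16 and 8. The models listed at 0 rest on the same kind of value, and no fold is given for them.

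Identifiers consist of a scaffold number and a gene number, and neighbours in that order were compared without reading a genome position from them. Among 14060 pairs of models next to each other on a scaffold number and both tested, both were called in 2015. In 817 of these both were higher in CR, in 392 both were lower and in 806 they went opposite ways, so 60.0% went the same way. At 10 places apart 57.2% of 640 such pairs did, where the overall split of higher and lower calls would give 52.0%. For models at least doubled or halved, 124 adjacent pairs passed, 0.882% of the pairs tested, against 0.626% at 2 places, 0.523% at 5 places and 0.694% at 10 places apart. Of the 124 pairs, 81 were both higher, 10 both lower and 33 opposite, so 73.4% went the same way. At 2, 5 and 10 places apart 67.5% of 77, 58.1% of 43 and 71.0% of 31 such pairs did. The split of doubled and halved models alone would give 64.3%. Runs of 3 neighbours, all at least doubled in CR, were found at 9 places, and 0 runs of 3 were at least halved. Over all models tested 5.39% were called and at least doubled and 1.63% called and at least halved. How many runs these shares alone would give was not worked out, so the 9 and the 0 are not a contrast between directions. Runs were looked for after the pairs had been counted.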

How the data were processed

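Messenger RNA of roots was sequenced in 12 libraries. Per the labels' protocols, the authors cleaned reads with fastp, aligned them with STAR, assembled transcripts with StringTie2 and compared them with known genes by Cuffcompare. Versions, genome build, annotation and the program that gave the abundances are not given in the sources used here. The values are the authors' deposited FPKM, per the file headers, with 1 column per library. FPKM is relative to the library, so a few abundant transcripts can shift all others, and reads shared by near-identical copies, common in an allotetraploid, may be split between them.

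Columns were matched to samples by title. Values were transformed to log2(FPKM + 1). Models averaging 1 FPKM or more across the 6 libraries compared were fitted with limma 3.58.1 (R 4.3.3, trended and robust moderation), without a replicate term. P-values were adjusted by Benjamini-Hochberg over all models tested, with a threshold of 0.05. CR minus WTR and TCR minus TWTR were fitted on separate sets of 6 libraries; the interaction was fitted on all 12. The procedure was also run on simulated data with independent noise and a small set of models, all raised in the first group. That run cannot speak to library scaling or to the number of calls reported here. Python 3.11.15 and pandas 2.3.3 gave counts and permutation tests.

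With no gene names, the naming rule took 2 models with the strongest rise in CR and 2 with the strongest fall, among models called, without overlap, at 5 FPKM or more on average in the higher group and at 1 FPKM or more in every library. Members, lists and tests were chosen with earlier results of these data known. Alternatives tried were pseudocounts of 0.1 and 5, TPM, median-of-ratios and quantile scaling, other filters, a fit of all 12 libraries, plain variance moderation, a replicate term, and leaving out each library.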

Additional observations from a re-analysis of the deposited data

Results flagged for a closer look

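For the 4 named models the difference between TCR and TWTR was set against that between CR and WTR in a fit of all 12 libraries, and all 4 passed (limma). The interaction on the log2 scale, (TCR minus TWTR) minus (CR minus WTR), was -4.87 for Nitab4.5_0000114g0140 (SE 0.18, limma adjusted p 1.05e-08) and -3.28 for Nitab4.5_0003436g0020 (SE 0.28, limma adjusted p 5.41e-06). It was 4.08 for Nitab4.5_0001039g0010 (SE 0.09, limma adjusted p 3.37e-10) and 4.83 for Nitab4.5_0003558g0020 (SE 0.51, limma adjusted p 7.36e-05). These models were named for a large CR minus WTR difference, which enters into the interaction, so the 4 results are partly built in.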

How the results depend on the processing

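Over 21 results and 300 alternatives, 263 values were labelled unchanged, by rules that differed between results. Named models had to keep their direction and side of the threshold, and counts had to stay within 1.5 times. Percentages had to stay near the reported value and on its side of an even split. Differences of library measures only had to keep their sign. The rule for counts took each direction alone. It passed the 3480 models higher and 4092 lower under quantile normalization, although their order had turned. The 4 named models passed in CR minus WTR under all alternatives run, with limma adjusted p up to 0.00548. They were picked for the largest differences among models called without overlap in these same libraries, so their passing is largely built in. The count of 7322 models called ranged from 5645 to 8020, and on leaving out a library from 5645 to 6706. It was 8020 in the fit of all 12 libraries. No model called in both was of opposite direction under any alternative (0). Of the 7322 models, 5478 to 6164 were also called on leaving out a library. The share of calls higher in CR was 55.2% with TPM, 52.7% with median-of-ratios scaling and 46.0% under quantile normalization, against 59.9% as deposited. With a pseudocount of 5, the doublings numbered 504 and the halvings 171, and with one of 0.1 they numbered 1336 and 440. A larger pseudocount shrinks differences of low values.

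Calls between TCR and TWTR numbered 793 to 2073 on leaving out a library. Calls shared with CR minus WTR numbered 548 going the same way and 601 going opposite ways, or 232 to 577 and 278 to 605 on leaving out a library. The fit of all 12 libraries gave 847 shared in the same direction and 860 in the opposite one. With plain variance moderation the counts were 373 and 381. Pairs of neighbouring identifiers called the same way numbered 1209, and 758 to 1017 on leaving out a library; the cause was not tested. Models at 0 in WTR numbered 3 with a minimum of 5 FPKM in CR and 150 with any value above 0, and 38 to 58 on leaving out a library. Models at 0 in CR numbered 0, 22, and 4 to 17. A higher minimum can only lower such a count and leaving out a library can only raise it; the sizes of these shifts were not otherwise tested.

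The replicate numbers did not pair the libraries. Deviations from the group means of same-numbered CR and WTR libraries correlated at -0.0665, 0.0298 and -0.0694, and those of TCR and TWTR at 0.0417, -0.00385 and 0.0219. With the replicate number as a block, 6132 models were called in CR minus WTR and 1116 in TCR minus TWTR, with 329 shared calls going the same way and 322 going opposite ways. The TCR minus TWTR difference of Nitab4.5_0003558g0020 then passed (limma adjusted p 0.0497 in place of 0.0666). Not every library correlated best with its own number. Absolute depth is unknown, so no counting error could be given, and values near 0 are limited most.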
